A study of Cannabis sativa with 10 samples.

Results

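Ethylene is a gaseous hormone that is tied to sex in cannabis flowers: silver ions, which block its perception, make genetically female plants form male flowers. The genes described here are those whose product description in the deposited table names ACC synthesis, oxidation or deamination (ACC is 1-aminocyclopropane-1-carboxylate, the ethylene precursor), ethylene overproduction, an ethylene receptor, REVERSION-TO-ETHYLENE SENSITIVITY, CTR1, EIN2 or EIN3. There were 42 of them among the 35192 genes of the table. Ethylene-responsive transcription factors were not included, and ethylene response sensor 1, a further receptor, fell outside by the wording of its description.

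Messenger RNA was sequenced from shoot apices of Cannabis sativa plants of genotype A3, in 10 libraries that fell into 5 groups of 2. The groups were male week 1 and male week 3 apices, induced to form male flowers with a treatment that the labels abbreviate as STS (read here as silver thiosulfate), female week 1 and female week 3 apices, induced to form female flowers, and vegetative apices. All groups shared the genotype, so male and STS treatment cannot be told apart in any comparison below. The labels do not say how many plants were in a library, whether the 2 libraries of a group came from separate plants, or how old the plants of each group were. The p-values therefore measure the spread between these libraries, which may be technical. Levels are in FPKM, sequenced fragments scaled to the length of the gene in kilobases and to the depth of the library.

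In plants ethylene is made from S-adenosylmethionine by ACC synthase and then ACC oxidase. Receptors in the endoplasmic reticulum, loaded with copper, keep the kinase CTR1 active when no ethylene is bound, and CTR1 keeps EIN2 inactive. With ethylene bound this stops, EIN2 is cleaved, and the transcription factors EIN3 and EIN3-like are no longer destroyed through the EIN3-binding F-box proteins. Silver takes the place of copper in the receptors, so that they no longer respond to ethylene. These steps are known mostly from Arabidopsis, whose closest protein the table gives for each gene.

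Tests were run on the 31 of these 42 genes that had a group mean of 1 FPKM or more. These were 3 of 6 ACC synthases, all 4 ACC oxidases, 8 of 16 genes named ACC oxidase homologs, 1 ACC deaminase, 2 genes named ethylene-overproduction protein 1, 2 receptors, 1 RTE1 gene, 3 CTR1 genes, 1 EIN2 gene, 4 EIN3-like genes and 2 EIN3-binding F-box genes. Differences are given in log2(FPKM + 1), with a standard error, from limma, a linear model fitted to 18309 genes and all 10 libraries. A gene is said to have risen, fallen or changed where the limma p, adjusted over all genes by Benjamini-Hochberg, was under 0.05. Adding 1 FPKM understates the change of genes with low levels.

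**Figure D1:**
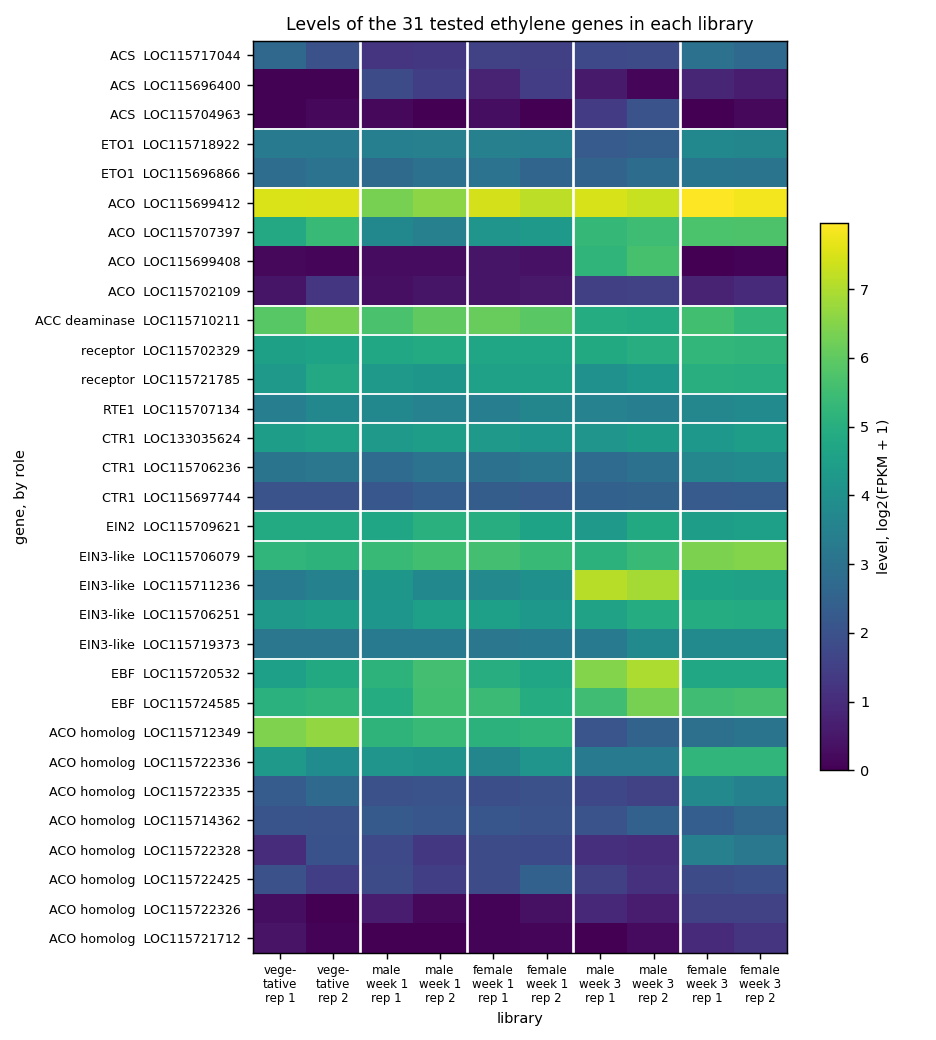
Level of each of the 31 tested genes, as log2(FPKM + 1) by colour, in each of the 10 libraries (columns, 2 per group), with genes in rows by role (ACS, ACC synthase; ACO, ACC oxidase; ETO1, ethylene-overproduction protein 1; EBF, EIN3-binding F-box). LOC115699412 was the highest in every library, at 78.8 to 248 FPKM, and LOC115699408 and LOC115711236 stood out in both male week 3 libraries.

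At week 3, 19 of the 31 genes differed between male and female apices, 5 higher and 14 lower in males. Of all genes tested, 60.3% were called, 31.7% higher and 28.6% lower. The share of members called was thus near that of all genes, with more of them on the lower side. Of the 14 lower genes, 6 were ACC oxidase homologs, which are not known to make ethylene. Of the genes called, LOC115699408, LOC115704963 and LOC115702109 reached a mean of 1 FPKM only in male week 3 apices. LOC115722326 and LOC115721712 reached it only in female week 3 apices. That limit fixed the direction of their differences between that group and the others, here and in the counts below. The libraries of the groups did not overlap for 26 of the 31, against 82.9% of all genes. The median difference of the members was -0.39, against -0.02 over all genes tested. At week 1, limma called 0 of the 31, where 0.137% of all genes were called; 3 had an unadjusted p under 0.05, and the authors' deposited table calls 1, LOC115699412. Without male week 1 replicate 2, limma called 1 too, also LOC115699412.

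The week 3 comparison of sexes moved with the scaling of the libraries. When each library was scaled to the same total, the median difference of all genes became -0.27 and the members' calls became 4 higher and 22 lower. With quantile normalisation the median of all genes was -0.26 and the members' calls were 4 higher and 21 lower. Differences below about that shift are therefore not separated from the choice of scale.

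**Figure D2:**
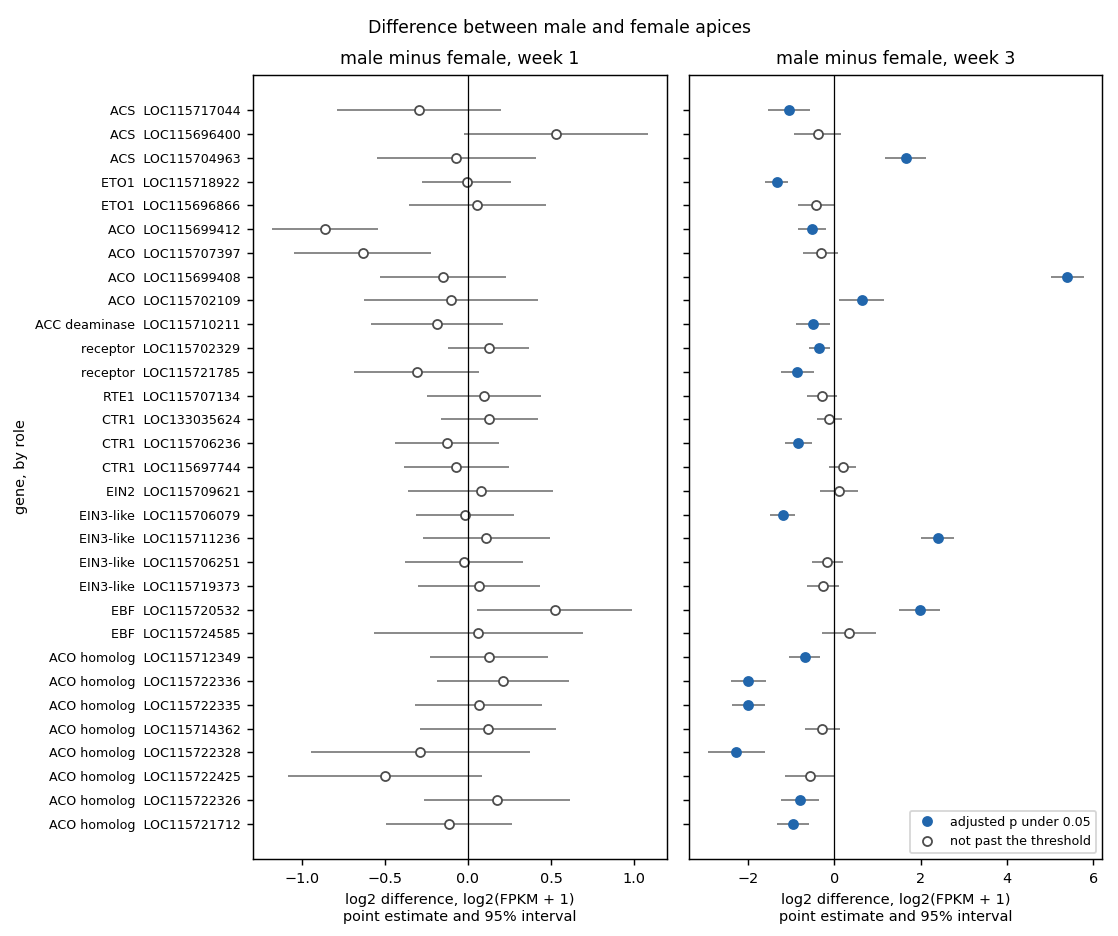
Male minus female difference of each tested gene in log2(FPKM + 1), with its 95% interval, at week 1 (left) and week 3 (right, on a wider axis). Filled points passed the threshold of 0.05 on the limma adjusted p: 0 of 31 at week 1 and 19 of 31 at week 3.

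Against vegetative apices, few of the genes changed at week 1, and 15 of the 31 changed in male and in female week 3 apices. In male week 1 apices 1 gene was higher and 4 were lower, where 6.4% of all genes were called, 3.54% higher and 2.86% lower. In female week 1 apices 1 was higher and 2 were lower, where 4.94% of all genes were called, 2.67% higher and 2.27% lower. The higher gene was LOC115696400 in each sex, and it reached a mean of 1 FPKM only in the week 1 groups, which fixed its direction. Male week 3 apices had 10 higher and 5 lower, where 62.8% of all genes were called, 34.8% higher and 27.9% lower. With quantile normalisation this split turned to 4 higher and 15 lower, with the median of all genes at -0.24; with scaling to the same total it was 9 higher and 6 lower. Female week 3 apices had 13 higher and 2 lower, where 36.5% of all genes were called, 19.8% higher and 16.8% lower. ACC oxidase homologs made up 5 of the 13 and 1 of the 2. The median difference there was 0.44 over the members against 0.01 over all genes. With scaling to the same total the female week 3 split was 19 higher and 2 lower, with the median of all genes at 0.22. With quantile normalisation that split was 15 higher and 2 lower, with the median of all genes at -0.02. Without female week 3 replicate 2, 9 genes were called there in place of 15, and the female week 1 count was 1 in place of 3 without female week 1 replicate 2, without either female week 3 library or without either male week 3 library.

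Between weeks, female week 3 apices against female week 1 apices had 14 genes higher and 2 lower, where 35.2% of all genes were called, 18.7% higher and 16.5% lower. ACC oxidase homologs made up 5 of the 14 and 1 of the 2. With scaling to the same total the split was 19 higher and 1 lower, with the median of all genes at 0.22. With quantile normalisation it stayed at 14 higher and 2 lower. Male week 3 against male week 1 apices had 9 higher and 5 lower, where 61.7% of all genes were called, 33.8% higher and 27.9% lower. This became 7 higher and 11 lower with quantile normalisation, where the median of all genes was -0.25. These comparisons share libraries with the ones above.

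ACC synthase is the regulated step of ethylene synthesis in most plants, and its genes stayed at or under 6.94 FPKM here. LOC115717044 (chromosome 5, 73980446 to 73983463 in assembly ASM2916894v1, minus strand), whose closest Arabidopsis protein is ACS6, had 5.45 and 2.92 FPKM in vegetative libraries, 1.28 and 1.42 in week 1 males, 1.90 and 1.87 in week 1 females, 2.41 and 2.62 in week 3 males, and 6.94 and 5.65 in week 3 females. Both female week 3 libraries were above all others, and both male week 1 libraries below all others. The gene averaged 2.52 ± 0.15 FPKM in male week 3 and 6.30 ± 0.92 FPKM in female week 3 apices (SD, n = 2 each), a difference of -1.05 ± 0.22 (limma adjusted p = 0.0023). It rose in female week 3 against female week 1 apices by 1.33 ± 0.22 (limma adjusted p = 0.00144). Male week 1 apices were lower than vegetative apices by a difference of -1.10 ± 0.22 (limma adjusted p = 0.0174), a call lost without vegetative replicate 1 (-0.74, adjusted p = 0.0761), without male week 1 replicate 1 (-1.05, adjusted p = 0.0599) and in a fit of those groups alone (adjusted p = 0.231).

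The other ACC synthases were near 0 in most libraries, and 4 of them had their highest values in male week 3 libraries. ACC synthase 7 (LOC115704963, chromosome 1, 15917819 to 15919913) had 1.69 and 3.14 FPKM in male week 3 libraries, against 0 and 0.124 FPKM in female week 3 libraries, and at most 0.230 FPKM in the vegetative and week 1 libraries. Male week 3 apices were higher by 1.65 ± 0.21 (limma adjusted p = 9.08e-05), a call kept under every alternative run. The gene passed the filter on low values only through male week 3, which fixed this direction, and the alternatives reuse the same libraries. ACS3-like LOC115696400 (chromosome X, 79965305 to 79969558) had another course, with 0.0369 and 0.0411 FPKM in vegetative, 2.51 and 1.77 in week 1 males, 0.709 and 1.74 in week 1 females, 0.493 and 0.0826 in week 3 males, and 0.790 and 0.544 in week 3 females. All 4 week 1 libraries were above both vegetative libraries, and the male week 1 libraries were above all others. LOC115696400 reached a mean of 1 FPKM only in the week 1 groups, at 2.14 FPKM in males and 1.22 FPKM in females. The filter therefore fixed the direction of its differences between week 1 and the vegetative and week 3 groups.

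For LOC115696400 male week 1 apices were 1.59 ± 0.25 above vegetative apices (limma adjusted p = 0.00482; 0.0871 in a fit of those groups alone) and male week 3 apices differed from male week 1 by -1.30 ± 0.25 (limma adjusted p = 0.0012). Female week 1 apices were 1.06 ± 0.25 above vegetative apices (limma adjusted p = 0.0406), but this call was lost under 10 of 16 alternatives. Among these, the adjusted p was 0.152 and 0.163 without vegetative replicate 1 and 2, 0.26 without female week 1 replicate 2 (difference 0.72), 0.0722 and 0.0725 without female week 3 replicate 1 and 2, and 0.0527 and 0.053 without male week 3 replicate 1 and 2.

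The 3 ACC synthases that were too low to test had their highest values in male week 3 libraries. LOC115704849 had 1.16 and 0.618 FPKM there and was listed at 0 in the other 8 libraries. LOC115712396 had 0.654 and 0.386 FPKM there and at most 0.114 FPKM elsewhere. ACS9-like LOC133037742 had 0.352 and 0.393 FPKM in male week 3 libraries, against 0.0289 and 0.0575 FPKM in female week 3 libraries, and was listed at 0 in the other 6. With no filter on low values all 3 were called higher in male week 3 than in female week 3 apices. They were added after their values were seen, so these calls are not independent of how the genes were picked. Of the 3, the authors' deposited table calls only LOC115704849 in this comparison. Summed over the 6 genes, ACC synthase levels overlapped between the sexes at week 3, at 6.76 and 7.24 FPKM in male against 7.88 and 6.40 FPKM in female libraries.

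Ethylene-overproduction protein 1 is known in Arabidopsis as part of a ubiquitin ligase that marks certain ACC synthases for destruction. LOC115718922 (chromosome 2, 55517117 to 55521275) had 8.42 and 8.96 FPKM in vegetative, 9.83 and 9.97 in week 1 males, 10.1 and 9.86 in week 1 females, 3.87 and 4.33 in week 3 males, and 12.2 and 11.6 in week 3 females. The male week 3 libraries were below all 8 others. The gene averaged 4.10 ± 0.32 FPKM in male week 3 and 11.9 ± 0.41 FPKM in female week 3 apices (SD, n = 2 each), a difference of -1.34 ± 0.12 (limma adjusted p = 6.76e-06). Against vegetative apices male week 3 fell by 0.93 (limma adjusted p = 8.84e-05). The other gene of this name, LOC115696866 on chromosome 7, is more alike to the Arabidopsis protein that both match, at 76.0% against 65.6% identity. LOC115696866 ranged from 4.74 to 7.58 FPKM over the 10 libraries and passed the threshold in no comparison. Its male minus female difference at week 3 was -0.42 (limma adjusted p = 0.0732).

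ACC oxidase carries out the last step of ethylene synthesis, and 1 gene held most of the family's level. LOC115699412 (chromosome 8, 39730851 to 39732792), closest to Arabidopsis ACO4, made up 61.9% to 90.7% of the summed ACC oxidase level in each library. It had 183 and 183 FPKM in vegetative, 78.8 and 94.3 in week 1 males, 172 and 144 in week 1 females, 176 and 155 in week 3 males, and 248 and 226 in week 3 females. The male week 1 libraries were below all others, and at both weeks the male libraries lay below the female ones.

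At week 1, LOC115699412 averaged 86.5 ± 11.0 FPKM in male and 158 ± 20.3 FPKM in female apices (SD, n = 2 each). That difference of -0.86 ± 0.14 missed the threshold (limma adjusted p = 0.0717) and passed it without male week 1 replicate 2 (-0.99, adjusted p = 0.0339). The authors' deposited table gives -0.88 with an adjusted p of 0.00858. Male week 1 fell by 1.08 ± 0.14 against vegetative apices (limma adjusted p = 0.00219; 0.11 in a fit of those groups alone), while female week 1 differed by -0.22 (limma adjusted p = 0.492). Male week 3 apices were 0.93 above male week 1 apices (limma adjusted p = 0.00029). The week 3 difference between male and female apices was -0.52 ± 0.14 (limma adjusted p = 0.0102), lost without female week 3 replicate 1 (-0.45, adjusted p = 0.0784) and without male week 3 replicate 2 (-0.42, adjusted p = 0.0694).

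The other ACC oxidase closest to ACO4, LOC115707397 (chromosome 1, 44575624 to 44577509), had 27.0 and 41.1 FPKM in vegetative, 12.3 and 9.98 in week 1 males, 16.9 and 18.5 in week 1 females, 38.7 and 44.3 in week 3 males, and 51.3 and 52.3 in week 3 females. All 4 week 1 libraries were below the 6 others. Male week 1 fell by 1.51 against vegetative apices (limma adjusted p = 0.00155; 0.117 in a fit of those groups alone). From week 1 to week 3 the gene rose in males by 1.81 (limma adjusted p = 1.66e-05). In females it averaged 51.8 ± 0.71 FPKM at week 3 and 17.7 ± 1.15 FPKM at week 1 (SD, n = 2 each; limma adjusted p = 0.000285). The male minus female difference was -0.63 at week 1 (limma adjusted p = 0.482) and -0.32 at week 3 (limma adjusted p = 0.163), neither past the threshold.

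ACC oxidase 5 (LOC115699408, chromosome X, 79865073 to 79866506, minus strand, 70.1% identical to Arabidopsis ACO5) was present almost only in male week 3 apices. It had 36.0 and 49.2 FPKM in male week 3 libraries, against 0 and 0.0498 FPKM in female week 3 libraries, and between 0.0679 and 0.368 FPKM in the vegetative and week 1 libraries. The male week 3 libraries were above all others. The difference was 5.40 ± 0.17 (limma adjusted p = 3.88e-09), the rise ranked 221 from the highest among the 18309 genes tested, and it was 8.43 with 0.1 FPKM added in place of 1. ACC oxidase 5 passed the filter on low values only through male week 3, which fixed the direction of this difference. The gene lies 98.8 kb from the ACS3-like gene LOC115696400, with 5 genes of the table between them.

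**Figure D3:**
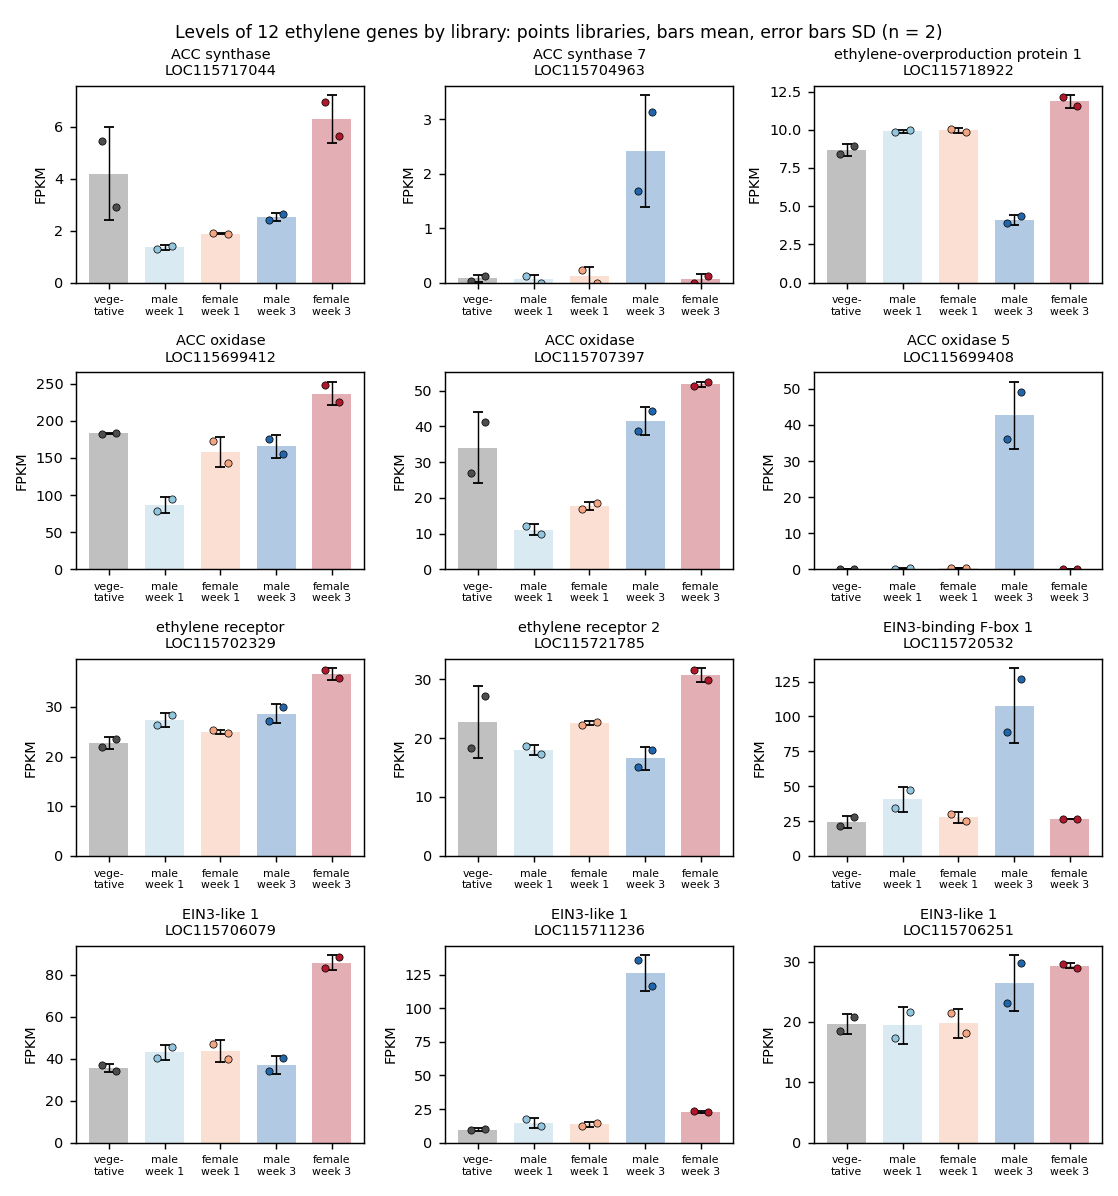
FPKM of 12 genes in the 5 groups, with libraries as points, group means as bars and SD as error bars (n = 2 per group); each panel has its own axis from 0. ACC oxidase 5 and LOC115711236 stood at 36.0 to 136 FPKM in male week 3 libraries, above every other library, and LOC115706079 stood at 83.3 and 88.4 FPKM in female week 3 libraries.

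Summed over the 4 genes, ACC oxidase stood at 91.5 and 105 FPKM in male week 1 libraries, against 190 and 163 FPKM in female week 1 libraries. At week 3 the sums were 253 and 250 FPKM in male and 300 and 279 FPKM in female libraries, and ACC oxidase 5 made up 14.3% and 19.7% of the male sums. ACC oxidase 1 (LOC115702109) stayed at or under 1.91 FPKM. It passed the filter on low values only through male week 3, which fixed the direction of its male week 3 rise. That rise over female week 3 of 0.64 (limma adjusted p = 0.0373) was lost under 10 of 16 alternatives. The adjusted p was 0.0513 without either female week 1 library, 0.17 and 0.0724 without female week 3 replicate 1 and 2, and 0.103 and 0.116 without male week 3 replicate 1 and 2.

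The gene described as a bifunctional D-cysteine desulfhydrase and ACC deaminase, LOC115710211 on chromosome 3, encodes a mitochondrial enzyme that can break down ACC. It had 58.3 and 79.7 FPKM in vegetative, 49.6 and 63.3 in week 1 males, 67.9 and 60.2 in week 1 females, 29.6 and 28.4 in week 3 males, and 45.9 and 37.2 in week 3 females. The week 3 libraries were below all others, with male below female. Male week 3 fell by 1.20 against vegetative apices (limma adjusted p = 0.000225) and by 0.92 against male week 1 (limma adjusted p = 0.00127). The week 3 difference between male and female, -0.50 ± 0.18 (limma adjusted p = 0.035), was lost without female week 3 replicate 1 (-0.35, adjusted p = 0.224) and without male week 3 replicate 1 (-0.52, adjusted p = 0.101) or 2 (-0.47, adjusted p = 0.133).

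Both ethylene receptors that the descriptions name were highest in female week 3 apices. Ethylene receptor 2 (LOC115721785, chromosome 9, 15999670 to 16004397) had 18.4 and 27.1 FPKM in vegetative, 18.6 and 17.4 in week 1 males, 22.3 and 22.7 in week 1 females, 15.2 and 18.0 in week 3 males, and 31.5 and 29.9 in week 3 females. The female week 3 libraries were above all others. The gene averaged 16.6 ± 1.99 FPKM in male week 3 and 30.7 ± 1.13 FPKM in female week 3 apices (SD, n = 2 each), a difference of -0.85 ± 0.17 (limma adjusted p = 0.00152). No other comparison between groups was called for it by limma, and female week 3 against vegetative apices gave 0.44 (limma adjusted p = 0.0659). The authors' deposited table calls it higher in female week 3 than in vegetative (adjusted p = 0.0428) and than in female week 1 apices (adjusted p = 0.00328). With each library scaled to the same total, limma called both as well (adjusted p = 0.00581 and 0.00701).

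The receptor closest to ETR1, LOC115702329 (chromosome X, 85478201 to 85486096, 81.8% identical), had 21.9 and 23.6 FPKM in vegetative, 26.3 and 28.4 in week 1 males, 25.3 and 24.7 in week 1 females, 27.3 and 29.9 in week 3 males, and 37.4 and 35.8 in week 3 females. The female week 3 libraries were again above all others. They rose by 0.66 over vegetative (limma adjusted p = 0.00124) and by 0.53 over female week 1 libraries (limma adjusted p = 0.00421). The male minus female difference at week 3 was -0.35 ± 0.11 (limma adjusted p = 0.0189), lost without female week 3 replicate 1 (-0.31, adjusted p = 0.111) or 2 (-0.38, adjusted p = 0.063) and without male week 3 replicate 1 (-0.28, adjusted p = 0.0733). Ethylene response sensor 1, the receptor outside the rule, ranged from 12.4 to 17.8 FPKM and passed the threshold in no comparison.

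RTE1, a regulator of the receptor ETR1 in Arabidopsis, is named by 1 gene, LOC115707134 on chromosome X. It ranged from 9.48 to 12.8 FPKM and passed the threshold in no comparison. Of the CTR1 genes, the one most alike to Arabidopsis CTR1, LOC133035624 on chromosome 3 (68.6% identical), ranged from 16.7 to 22.3 FPKM and also passed it in none.

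A second CTR1 gene, LOC115706236 (chromosome 1, 30777959 to 30785967, 53.3% identical), had 7.41 and 7.92 FPKM in vegetative, 5.95 and 7.18 in week 1 males, 6.84 and 7.65 in week 1 females, 5.92 and 6.89 in week 3 males, and 11.8 and 12.6 in week 3 females. The female week 3 libraries stood above the rest, and the others overlapped. The male minus female difference at week 3 was -0.84 ± 0.14 (limma adjusted p = 0.000558). The third gene described as CTR1, LOC115697744 on chromosome X, is closest to another Arabidopsis kinase, AT4G24480, and had 3.11 to 4.79 FPKM. Its rise in male week 3 over vegetative apices of 0.46 (limma adjusted p = 0.0169) was lost with quantile normalisation (0.08, adjusted p = 0.639), in a fit of those groups alone (adjusted p = 0.0576), without vegetative replicate 1 (adjusted p = 0.0552) or 2 (adjusted p = 0.0551) and without male week 3 replicate 2 (0.42, adjusted p = 0.054).

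EIN2, the membrane protein that carries the signal from CTR1 to the nucleus, is named by LOC115709621 on chromosome 3. It had 28.3 and 28.2 FPKM in vegetative, 24.5 and 32.4 in week 1 males, 30.0 and 23.7 in week 1 females, 18.8 and 27.9 in week 3 males, and 20.8 and 21.5 in week 3 females. Male and female libraries overlapped at both weeks, and limma called no difference in any comparison. The authors' deposited table calls it lower in female week 3 than in vegetative apices (adjusted p = 0.00308) and than in female week 1 apices (adjusted p = 0.0185).

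The EIN3-like genes encode the transcription factors at the end of the pathway, and different genes of the family were high in the sexes at week 3. LOC115711236 (chromosome X, 64325348 to 64327776) had 8.98 and 10.3 FPKM in vegetative, 17.5 and 12.3 in week 1 males, 12.3 and 14.8 in week 1 females, 136 and 117 in week 3 males, and 23.5 and 22.6 in week 3 females. The male week 3 libraries were above all others, and the female week 3 libraries above the remaining 6. The gene averaged 126 ± 13.4 FPKM in male week 3 and 23.0 ± 0.69 FPKM in female week 3 apices (SD, n = 2 each), a difference of 2.40 ± 0.17 (limma adjusted p = 1.24e-06). Against vegetative apices, male week 3 rose by 3.58 (limma adjusted p = 6.41e-08) and female week 3 by 1.18 (limma adjusted p = 0.000621).

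LOC115706079 (chromosome 1, 2396651 to 2400858) had the other order. It had 37.1 and 34.3 FPKM in vegetative, 40.5 and 45.5 in week 1 males, 47.2 and 40.0 in week 1 females, 33.9 and 40.1 in week 3 males, and 83.3 and 88.4 in week 3 females. Only the female week 3 libraries stood apart, above the other 8. The male minus female difference at week 3 was -1.20 ± 0.13 (limma adjusted p = 2.88e-05), and female week 3 rose by 1.24 over vegetative apices (limma adjusted p = 9.99e-05). These calls were kept under every alternative run.

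The remaining EIN3-like genes did not differ between the sexes past the threshold. Of the genes closest to Arabidopsis EIN3, LOC115706251 was the most alike, at 63.4% identity, against 58.3% for LOC115711236 and 55.6% for LOC115706079. LOC115706251 on chromosome 1 had 23.1 and 29.7 FPKM in male week 3 and 29.7 and 29.0 FPKM in female week 3 libraries, and EIN3-like 3 (LOC115719373, chromosome 2) had 8.83 and 12.9 FPKM in male week 3 libraries and 13.1 ± 0.04 FPKM (mean ± SD, n = 2) in female week 3 libraries. In female week 3 apices LOC115706251 rose by 0.56 (limma adjusted p = 0.0211) and LOC115719373 by 0.66 (limma adjusted p = 0.0106) over vegetative apices. Without female week 3 replicate 1 or 2 the adjusted p was 0.105 or 0.0888 for LOC115706251 and 0.0617 or 0.0606 for LOC115719373; without vegetative replicate 1 or 2 it was 0.113 or 0.0508 for LOC115706251, and without vegetative replicate 2 it was 0.0512 for LOC115719373.

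As a family, EIN3-like transcripts summed to 202 and 200 FPKM in male week 3 libraries, against 150 and 153 FPKM in female week 3 libraries and 72.4 and 73.3 FPKM in vegetative libraries. LOC115711236 held 67.3% and 58.6% of the sum in male week 3 libraries, against 15.7% and 14.7% in female week 3 libraries. LOC115706079 held 16.8% and 20.1% in male week 3 libraries, against 55.7% and 57.8% in female week 3 libraries. The plot of summed levels shows that the leading gene of the family was LOC115711236 in male week 3 libraries and LOC115706079 in the others.

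**Figure D4:**
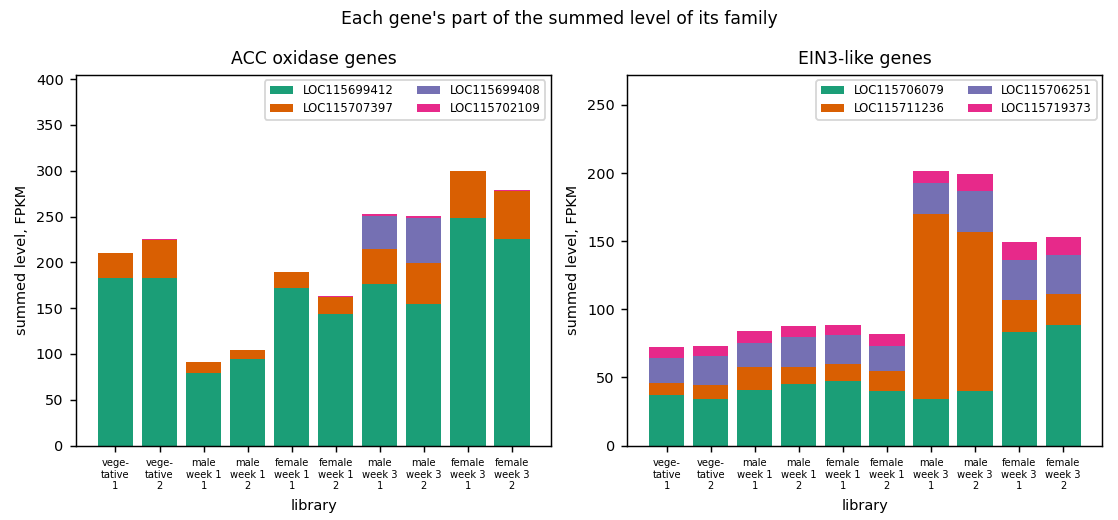
Summed FPKM of the 4 ACC oxidase genes (left) and the 4 EIN3-like genes (right) in each library, with a colour for each gene. ACC oxidase was led by LOC115699412 in all libraries, while the EIN3-like sum of 202 and 200 FPKM in male week 3 libraries was mostly LOC115711236.

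EIN3-binding F-box proteins take EIN3 to destruction, and in Arabidopsis a gene of this kind is itself switched on by EIN3. LOC115720532 (chromosome X, 71608675 to 71612698) had 21.5 and 27.7 FPKM in vegetative, 34.0 and 46.9 in week 1 males, 30.3 and 24.9 in week 1 females, 88.7 and 127 in week 3 males, and 26.2 and 26.1 in week 3 females. The male week 3 libraries were above all others, and at week 1 the male libraries were also above the female ones. At week 3 it averaged 108 ± 26.8 FPKM in male and 26.2 ± 0.03 FPKM in female apices (SD, n = 2 each), a difference of 1.98 ± 0.21 (limma adjusted p = 2.17e-05). At week 1 the difference of 0.52 missed the threshold (limma adjusted p = 0.753).

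The other F-box gene, LOC115724585 on chromosome 6, had 33.1 and 36.3 FPKM in vegetative, 29.2 and 46.0 in week 1 males, 41.9 and 29.3 in week 1 females, 44.4 and 78.5 in week 3 males, and 44.8 and 47.8 in week 3 females. The 2 male week 3 libraries were far apart, and male week 3 replicate 1 lay below both female week 3 libraries. Its rise in male week 3 over vegetative apices of 0.75 (limma adjusted p = 0.0383) was lost without male week 3 replicate 2 (0.35, adjusted p = 0.327), without vegetative replicate 1 (0.69, adjusted p = 0.142) or 2 (0.82, adjusted p = 0.0893), without female week 3 replicate 1 (adjusted p = 0.0555) or 2 (adjusted p = 0.0556), with no filter (adjusted p = 0.0684) and with quantile normalisation (0.42, adjusted p = 0.158).

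The 16 genes named ACC oxidase homologs belong to the same broad family of dioxygenases and carry the name for their similarity; they are not known to make ethylene. Of the 16, 13 lie on chromosome 9 within 140.1 kb, between 632158 and 772280, where the table lists 17 genes in all, and 3 lie on chromosome 4. Members of such a tandem cluster can be near copies of each other, and how reads that fit several copies were counted is not given in the sources used here, so the split of levels among them is uncertain. Of the 8 tested, 6 were lower in male week 3 than in female week 3 apices and 0 were higher, where 28.6% of all genes were called lower and 31.7% higher; the 2 that were not called were LOC115722425 and LOC115714362. In female week 3 against vegetative apices 5 were higher and 1 was lower, where 19.8% of all genes were called higher and 16.8% lower. LOC115722326 and LOC115721712 reached a mean of 1 FPKM only in female week 3 apices, at 1.95 and 1.12 FPKM. The filter therefore fixed the direction of their differences between female week 3 and the other groups.

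The highest gene of the chromosome 9 cluster, LOC115722336, had 18.2 and 13.6 FPKM in vegetative, 16.8 and 16.04 in week 1 males, 11.7 and 16.8 in week 1 females, 8.51 and 8.56 in week 3 males, and 36.8 and 36.8 in week 3 females. Its female week 3 libraries were above all others and its male week 3 libraries below all others. The male minus female difference at week 3 was -1.99 ± 0.18 (limma adjusted p = 6.42e-06). Its neighbour LOC115722335 had 2.29 and 1.95 FPKM in male week 3 libraries against 12.4 and 10.4 FPKM in female week 3 libraries, a difference of -1.99 ± 0.17 (limma adjusted p = 5.02e-06). LOC115722328 had 1.14 and 1.02 FPKM in male week 3 libraries against 10.1 and 8.14 FPKM in female week 3 libraries, a difference of -2.27 ± 0.29 (limma adjusted p = 9.49e-05). It was the lowest of the members in this comparison, at rank 211 from the lowest of 18309. In the same cluster, 3 genes (LOC115722427, LOC133031050 and LOC133031051) were listed at 0 in all libraries.

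**Figure D5:**
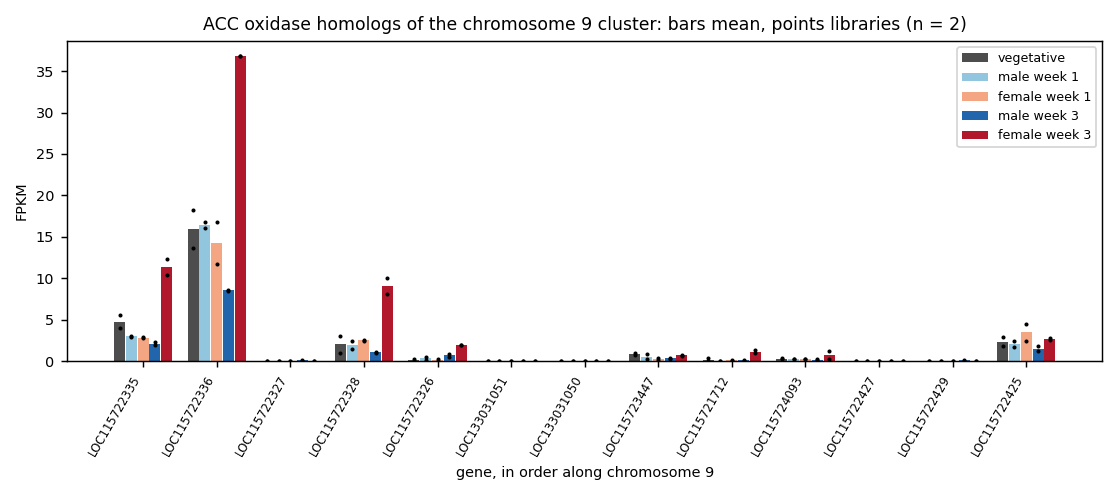
FPKM of the 13 ACC oxidase homologs in their order along chromosome 9, with bars for the group means and points for the 2 libraries of each group. The 3 genes with the highest bars, LOC115722335, LOC115722336 and LOC115722328, were highest in female week 3 libraries (8.14 to 36.8 FPKM), and 3 genes were listed at 0 throughout.

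On chromosome 4, LOC115712349 (82403223 to 82405768) followed another course and was the highest homolog in vegetative and week 1 libraries. It had 85.2 and 100 FPKM in vegetative, 35.3 and 40.6 in week 1 males, 33.3 and 36.0 in week 1 females, 3.30 and 4.75 in week 3 males, and 6.61 and 7.33 in week 3 females. The vegetative, week 1 and week 3 libraries formed separate ranges in descending order, and the sexes overlapped at week 1. Against vegetative apices, male week 1 fell by 1.27 (limma adjusted p = 0.0017; 0.0949 in a fit of those groups alone), female week 1 fell by 1.39 (limma adjusted p = 0.00175), male week 3 fell by 4.23 (limma adjusted p = 1.24e-08) and female week 3 fell by 3.55 (limma adjusted p = 5.4e-07). The female week 3 fall ranked 31 from the lowest of the 18309 genes tested. Of 2 leaf markers, the light-harvesting gene LOC115712676 also had its levels in this order of stages, with 2214 and 2425 FPKM in vegetative, 591 and 795 in week 1 males, 966 and 743 in week 1 females, 250 and 298 in week 3 males, and 559 and 456 in week 3 females. The other, the Rubisco small subunit gene LOC115722832, did not, with 159 and 166 FPKM in vegetative, 198 to 244 FPKM in week 1 and 120 to 125 FPKM in week 3 libraries. The part of leaf tissue in the fall of LOC115712349 was not tested.

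The male minus female difference at week 3 differed from that at week 1 for 14 of the 31 genes, tested as an interaction; 45.6% of all genes were called, 25.8% higher and 19.9% lower. It was higher at week 3 for 4 genes and lower for 10. The 4 were ACC oxidase 5 (LOC115699408, 5.55 ± 0.24, limma adjusted p = 8.55e-08), LOC115711236 (2.29 ± 0.24, limma adjusted p = 3.94e-05), ACC synthase 7 (LOC115704963, 1.72 ± 0.30, limma adjusted p = 0.00113) and the F-box gene LOC115720532 (1.45 ± 0.29, limma adjusted p = 0.00271). The 10 were 6 ACC oxidase homologs, EIN3-like LOC115706079 (-1.18 ± 0.19, limma adjusted p = 0.000576), LOC115718922 (-1.33 ± 0.17, limma adjusted p = 0.000145), CTR1 gene LOC115706236 and receptor LOC115702329. Of the 14, ACC oxidase 5 and ACC synthase 7 passed the filter on low values only through male week 3. Homologs LOC115722326 and LOC115721712 passed it only through female week 3. With the libraries scaled to the same total, the count was 4 higher and 16 lower. It was 9 in all without female week 1 replicate 1 or without female week 3 replicate 2.

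Of the 4 members higher in male week 3 in both the week 3 comparison and the interaction, 3 lie on chromosome X (LOC115699408, LOC115711236 and LOC115720532). Chromosome X held 7 of the 42 members, 16.7%, and 12.3% of the placed genes of the table. All 7 were among the 31 members tested, the only ones that could be called. The share of chromosome X among all genes called higher was not computed. The 4 were picked by their results, and the filter on low values fixed the direction of LOC115699408. No conclusion on chromosome X is drawn from this count. Chromosome 9 held 14 members, 33.3% against 8.77% of the placed genes, 13 of them the homolog cluster.

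Markers of anther tissue moved with male week 3, and the part of that tissue in the differences above was not tested. In bulk apices, a change in the cells present and a change in RNA per cell cannot be told apart. The summed level of 14 tapetum and anther markers was 1754 and 2455 FPKM in male week 3 libraries and 9.36 to 17.4 FPKM in the other 8. In those 8, 5 to 9 of the 14 were listed at 0. All 14 rose in male week 3 against female week 3 apices, where 31.7% of all genes were called higher. All except the gene closest to CYP704B1, LOC115700892, passed the filter on low values only through male week 3, which fixed the direction of their differences. The stamen identity genes AP3 and PI summed to 296 and 267 FPKM in male week 3 libraries and to at most 3.82 FPKM elsewhere. Of 7 carpel and ovule markers, 6 were tested, with a median male minus female difference of -2.22 at week 3. In male week 3, 2 were higher and 4 lower, where 31.7% of all genes were called higher and 28.6% lower. The 4 were the genes closest to CRC (LOC115699020, 0.681 and 0.534 FPKM in male against 22.8 and 18.6 FPKM in female week 3 libraries), STK (LOC133031811, 1.17 and 0.846 FPKM in male against 83.8 and 69.8 FPKM in female week 3 libraries), INO and ANT. The gene closest to INO passed the filter only through female week 3. The list's sum went the other way, at 314 and 282 FPKM in male and 165 and 144 FPKM in female week 3 libraries. A gene described as AGAMOUS, LOC115700192, whose identity to STK was only 32%, gave 286 and 254 FPKM of the male sums.

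Shoot meristem markers, 6 genes of which 5 were tested, moved with the sexes at week 3 too, and their part in the differences was not tested. They summed to 21.7 and 25.3 FPKM in male week 3 libraries, against 36.2 and 43.2 FPKM in female week 3 libraries. Of those tested, 1 was higher and 4 lower in male apices, where 31.7% of all genes were called higher and 28.6% lower. Against male week 1 apices, male week 3 apices also had 1 higher and 4 lower. There 33.8% of all genes were called higher and 27.9% lower. The gene closest to WUS, LOC115711960, had 2.66 and 5.77 FPKM in male week 3 libraries, against 0.203 and 0.403 FPKM in female week 3 libraries, and was listed at 0 in both vegetative libraries. It passed the filter on low values only through male week 3, which fixed its direction.

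Pathway genes outside the rule were taken from a list by their closest Arabidopsis protein. Among 4 S-adenosylmethionine synthases, which make the precursor of ACC, 0 were higher and 1 was lower in male week 3 than in female week 3 apices. Of all genes, 31.7% were called higher and 28.6% lower there. Against vegetative apices, 2 of the synthases were lower in male week 3 and 3 in female week 3. Of all genes, 27.9% were called lower in male week 3 and 16.8% in female week 3. The gene closest to MAT3, LOC115711343, had 128 and 132 FPKM in male week 3 libraries, against 271 and 248 FPKM in female week 3 libraries and 543 and 449 FPKM in vegetative libraries. Male week 3 was lower than female week 3 by a difference of -0.995 ± 0.16 (limma adjusted p = 0.000375).

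The Yang cycle returns the sulphur of S-adenosylmethionine after ACC is made. Of its 7 genes, 2 were higher and 0 lower in male week 3 than in female week 3 apices. Of all genes, 31.7% were called higher and 28.6% lower there, so the count of higher genes was near that share. Both higher genes are closest to MTN1, a nucleosidase of the cycle. LOC115704327 (chromosome X) had 208 and 201 FPKM in male week 3 libraries, against 19.7 and 18.8 FPKM in female week 3 libraries, and 17.7 to 26.3 FPKM in the others; the difference was 3.34 ± 0.14 (limma adjusted p = 2.17e-08). LOC133033195 had 42.4 and 44.7 FPKM in male week 3 against 4.73 and 4.98 FPKM in female week 3 libraries, a difference of 2.93 (limma adjusted p = 9.39e-08). It was placed on no chromosome, and both genes were 70.04% identical to MTN1. How reads that fit both were counted is not given, so their levels may not be independent. The gene closest to ARD4, LOC115721731, had 8.41 and 5.88 FPKM in male week 3 and 6.24 and 4.81 FPKM in female week 3 libraries, against 45.7 and 63.2 FPKM in vegetative libraries.

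The copper transporter RAN1, which loads receptors with copper in Arabidopsis, is matched by LOC115698184. It had 14.0 and 14.0 FPKM in vegetative, 13.5 and 18.1 in week 1 males, 16.4 and 14.7 in week 1 females, 20.4 and 22.9 in week 3 males, and 24.5 and 26.7 in week 3 females. All 4 week 3 libraries were above the other 6. It rose over vegetative apices by 0.60 in male week 3 (limma adjusted p = 0.00533) and by 0.83 ± 0.15 in female week 3 (limma adjusted p = 0.00196), while the male minus female difference at week 3 of -0.23 was not called (limma adjusted p = 0.199). Of 6 genes matching ethylene signalling modifiers, 5 were tested. In male week 3 against female week 3 apices, 2 were higher and 0 lower, where 31.7% of all genes were called higher and 28.6% lower. Both, LOC133034882 and LOC133034927, are closest to the exoribonuclease XRN4, at 67.8% identity. A further tested match to XRN4, LOC115716957 (49.7% identical), was not called. It had 4.44 and 4.22 FPKM in male against 5.26 and 4.71 FPKM in female week 3 libraries.

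The authors' deposited table holds its own fold changes and adjusted p-values, made with a tool that no source used here gives. For male against female apices at week 3 the authors' deposited table calls 16 of the 42 members, where it calls 29.4% of all 35192 genes; limma also called 15 of the 16, all in the same direction, and 4 more. At week 1 it calls 1, where it calls 0.153% of all genes. Against vegetative apices the authors' deposited table calls 6 members in male week 1 (2.3% of all genes), 4 in female week 1 (3.79%), 11 in male week 3 (28.8%) and 20 in female week 3 (19.9%). Limma called 5 of the 6, 3 of the 4, 10 of the 11 and 15 of the 20, and 5 more in male week 3. Between weeks the authors' deposited table calls 14 in males (26% of all genes) and 18 in females (21.1%), of which limma called 12 and 16.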

How the data were processed

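RNA was extracted from apical shoot tips and sequenced, with libraries made by a sequencing company, per the labels' protocols. The values per gene and library that the authors deposited were read as FPKM, normalised by the authors to gene length and library total; the file headers name no unit, and RPKM would look the same. No source used here gives the aligner, counter or statistical tool. Genes, coordinates, descriptions and percent identity to the closest Arabidopsis protein are as deposited by the authors, on assembly ASM2916894v1 per the file headers. The log2 fold changes and adjusted p-values deposited by the authors were only set beside the limma calls. All 42 symbols were found in the reference gene table of that assembly.

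The members were matched on the description. They, the gene lists and the tests were chosen with earlier results of these data known. Genes whose mean reached 1 FPKM in any group (18309) were fitted as log2(FPKM + 1) by limma 3.58.1 (R 4.3.3). Each group had its own mean, the empirical Bayes prior was trended and robust, residual degrees of freedom were 5 and those of the prior 4.63 at the median, with 2-sided tests and Benjamini-Hochberg adjustment over all genes. The step was tested on simulated data. Members were named where they had a mean of 1 FPKM in some group, and in full for up to 3 called per role and comparison, or the highest where none was called; untested ACC synthases were added after their values were seen. Alternatives were 0.1 FPKM added, no filter, each library scaled to the same total, quantile normalisation, only the groups compared, the replicate number as a block, and each library left out.

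Read depth is unknown, so there are no counting intervals, and low values are imprecise. Totals were 603616 to 764672 FPKM per library, and relative depth, from the steps of low values, was 0.863 to 1.24. Replicates correlated at 0.98 to 0.992 over genes tested.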

Additional observations from a re-analysis of the deposited data

Results flagged for a closer look

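For 14 genes the male minus female difference was not the same at week 3 as at week 1, by the limma interaction test in log2(FPKM + 1). The difference was higher at week 3 for ACC oxidase 5 (LOC115699408, 5.55), EIN3-like LOC115711236 (2.29), ACC synthase 7 (LOC115704963, 1.72) and EIN3-binding F-box LOC115720532 (1.45). It was lower at week 3 for ethylene-overproduction protein 1 LOC115718922 (-1.33), EIN3-like LOC115706079 (-1.18), CTR1 gene LOC115706236 (-0.71) and receptor LOC115702329 (-0.47). It was also lower for the ACC oxidase homologs LOC115722336 (-2.20), LOC115722335 (-2.05), LOC115722328 (-1.99), LOC115722326 (-0.96), LOC115721712 (-0.85) and LOC115712349 (-0.81).

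The interaction of receptor LOC115702329 was lost without either female week 1 library (limma adjusted p = 0.0754 and 0.094), male week 1 replicate 2 (0.07), either female week 3 library (0.108 and 0.0712) and male week 3 replicate 1 (0.0618). Those of LOC115706236 (0.062 and 0.0622), LOC115712349 (0.0539 and 0.0605) and LOC115721712 (0.0551 and 0.0681) were lost when female week 1 replicate 1 or female week 3 replicate 2 was left out. That of LOC115722326 was lost without female week 1 replicate 1 (0.07), male week 1 replicate 1 (0.0594), female week 3 replicate 2 (0.0522) and male week 3 replicate 2 (0.05). With 0.1 FPKM added in place of 1, the interactions of LOC115722326 (limma adjusted p = 0.115) and LOC115721712 (0.0815) were also lost.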

How the results depend on the processing

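Over the comparisons and the interaction, 101 calls were made on members. With each library scaled to the same total, 97 were kept in direction and past the threshold, with 0.1 FPKM added 96, with no filter 93, with quantile normalisation 92 and with only the groups compared 88; leaving out a library kept 79 to 99. The 1 call that turned its direction was LOC115722326 in male week 3 against vegetative apices, at -0.044 with quantile normalisation. Female week 1 against vegetative apices gave 1 call with no filter and 1 with only the groups compared, and male week 1 against vegetative apices gave 0 with only the groups compared, where 8 of all genes were called in place of 1172. Leaving out a library gave 0 to 1 calls for male against female week 1, 15 to 19 for male against female week 3, 1 to 3 for female week 1, 5 to 6 for male week 1, 9 to 17 for female week 3 and 11 to 15 for male week 3 against vegetative, 12 to 18 between female weeks, 12 to 15 between male weeks and 9 to 17 for the interaction. The replicate numbers are not stated to pair libraries, and replicate differences of the groups correlated at -0.417 to 0.215; with the replicate number as a block 99 calls were kept, with 2 in place of 3 for female week 1 and 14 in place of 15 for male week 3 against vegetative. The block gave 0 for male against female week 1, 19 at week 3, 5 for male week 1 and 15 for female week 3 against vegetative, 16 between female weeks, 14 between male weeks and 14 for the interaction.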
